A study of Mus musculus with 6 samples.

Results

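The PGC-1 coactivators, the estrogen-related receptors (ERR), the nuclear respiratory factors and the corepressor RIP140 were examined in inguinal white adipose tissue (iWAT), the subcutaneous fat of the groin, of *Hlx* transgenic mice. The members were 9 named genes, *Ppargc1a*, *Ppargc1b*, *Pprc1*, *Esrra*, *Esrrb*, *Esrrg*, *Nrf1*, *Gabpa* and *Nrip1*, each taken from the row of the expression table that carried its name alone and, where several rows did, from the one with the highest mean. Of these 9 genes, 8 had such a row among the 19445 loci of the table, and *Esrra* was listed only in a row shared with its neighbour *Prdx5*. The comparison was between 3 *Hlx* transgenic mice and 3 wild-type littermates, all 12 weeks old, with 1 RNA-Seq library per mouse. The transgene placed the *Hlx* coding sequence behind the aP2 (*Fabp4*) promoter, which is active in adipocytes, in lines made from C57BL/6 × SJL hybrid embryos and backcrossed to C57BL/6, and the number of lines behind the 3 transgenic mice was not given in the sources used here. The controls carried no transgene.

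Values are FPKM, a read density per length of transcript and per mapped read, so levels can be compared roughly between genes. The comparison is less sure where a gene shares bases or reads with another or is split over several rows. Fold changes are transgenic minus wild-type on the log2(FPKM + 1) scale, on which changes at low FPKM come out too small, and a call means an adjusted p under 0.05 in limma with Benjamini-Hochberg adjustment over the 11692 loci whose mean passed 1 FPKM in either genotype. By that rule 11.6% of the tested loci were higher and 7.03% lower in transgenic iWAT, 18.6% in either direction, and the genotypes did not overlap at 42.9% of loci. The FPKM sum of a library lay between 466100 and 542100, the absolute depth is unknown, and the relative depth read from the steps between low values ranged from 0.692 in transgenic replicate 3 to 1.41 in wild-type replicate 2. *Hlx* itself was at 110, 79.6 and 99.5 FPKM in the transgenic mice and at 6.88, 7.35 and 8.14 FPKM in the controls, higher in each mouse labelled transgenic. The labels call all 6 mice male, but *Xist* was between 20.2 and 33.6 FPKM in every library and each of the 28 Y-linked loci was listed at 0 throughout. The adipocyte markers summed to between 26160 and 34060 FPKM in all 6 libraries.

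The PGC-1 proteins do not bind DNA themselves. They are recruited by transcription factors, among them the ERR nuclear receptors and nuclear respiratory factor 1 (*Nrf1*), and raise the transcription of genes for fatty acid oxidation, the citric acid cycle and the respiratory chain. GABPα, the DNA-binding subunit of nuclear respiratory factor 2, binds the same class of respiratory chain promoters, and RIP140 (*Nrip1*) is a corepressor that acts on many of the same nuclear receptors. In fat, PGC-1α is known as the coactivator that cold and β-adrenergic signals induce in brown and beige adipocytes.

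Both *Ppargc1a* and *Ppargc1b* rose in transgenic iWAT, as did *Esrrg*, and *Nrip1* fell, while *Pprc1*, *Nrf1* and *Gabpa* did not pass the test. The ratio of mean FPKM was 1.54 for *Ppargc1a*, 3.32 for *Ppargc1b* and 7.04 for *Esrrg*, and *Nrip1* was 2.44-fold lower. Of the 8 members with a row of their own 7 passed the filter on low values, and of these 7 tested members 3 were called higher, against 11.6% of all loci, and 1 lower, against 7.03%. The genotypes did not overlap in 6 of the 7 tested members, against 42.9% of all loci. *Esrrg* passed the filter through the transgenic mean alone, so its count among the tested members is not independent of its rise.

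**Figure D1:**
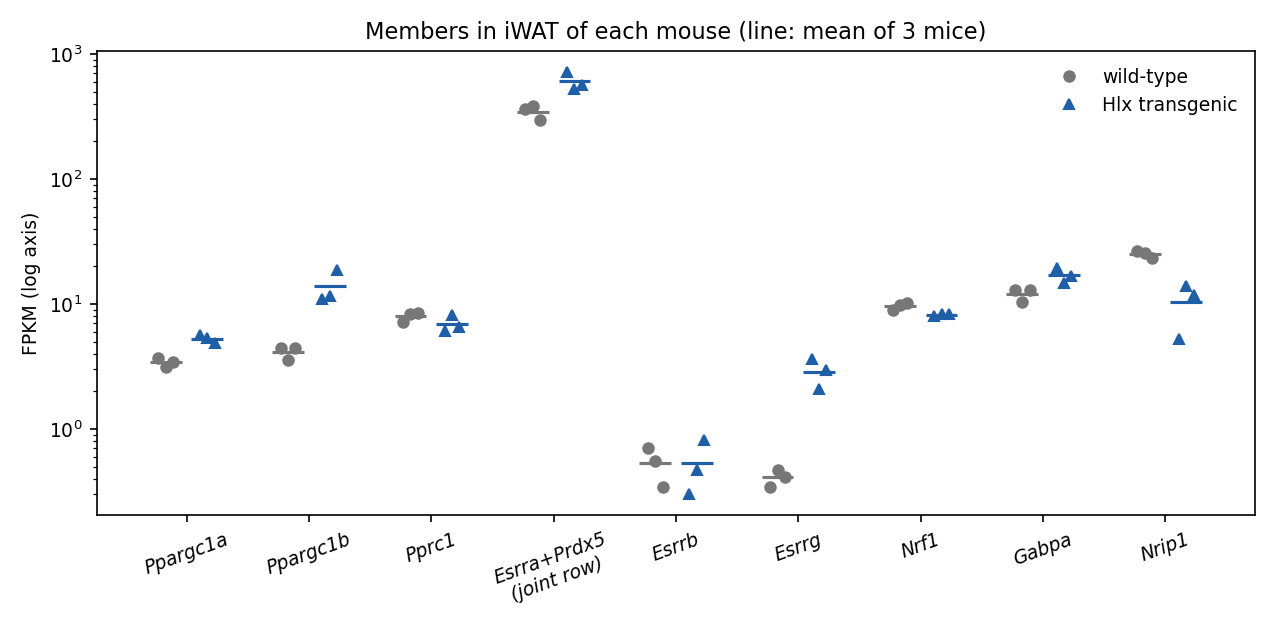
FPKM of each member (log axis) in the iWAT of every mouse, with grey circles for the 3 wild-type and blue triangles for the 3 transgenic mice and a line at each mean. *Ppargc1a*, *Ppargc1b* and *Esrrg* lie higher in all 3 transgenic mice, *Nrip1* lies lower in all 3, and the joint row of *Esrra* and *Prdx5* stands far above the single-gene rows.

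The sequences just before the transcription start are shown for *Ppargc1a* and *Nrip1*, which moved in opposite directions, and for *Esrra*, whose row is shared. They run 5′ to 3′ on the strand of the gene, from 250 to 11 bases before the start (RefSeq, GRCm38.p6, the assembly named mm10). Capitals mark a match to a motif: CGTCA, the reverse complement of the cyclic AMP response half-site TGACG, in *Ppargc1a*, and GCATGCGC, the core of the NRF-1 motif, in *Esrra*.
*Ppargc1a*, chr5:51567736-51567975, minus strand: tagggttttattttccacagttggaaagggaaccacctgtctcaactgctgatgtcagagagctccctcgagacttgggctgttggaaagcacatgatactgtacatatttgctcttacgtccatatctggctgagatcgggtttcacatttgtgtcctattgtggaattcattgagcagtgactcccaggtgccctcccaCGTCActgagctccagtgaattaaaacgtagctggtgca
*Nrip1*, chr16:76373838-76374077, minus strand: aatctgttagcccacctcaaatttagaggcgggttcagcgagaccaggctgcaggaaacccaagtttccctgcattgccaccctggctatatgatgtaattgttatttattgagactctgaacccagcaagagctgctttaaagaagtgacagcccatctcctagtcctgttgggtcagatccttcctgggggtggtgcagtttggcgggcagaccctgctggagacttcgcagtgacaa
*Esrra*, chr19:6921819-6922058, minus strand: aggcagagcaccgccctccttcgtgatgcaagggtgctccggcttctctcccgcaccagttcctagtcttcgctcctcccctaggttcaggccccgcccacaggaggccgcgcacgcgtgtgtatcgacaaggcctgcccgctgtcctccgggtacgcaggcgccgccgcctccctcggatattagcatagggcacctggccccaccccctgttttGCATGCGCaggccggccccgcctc

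The 250 bases before each listed start of the members other than *Ppargc1b* were searched on both strands for 6 motifs. These were the ERR element TCAAGGTCA and its shorter form AAGGTCA, which lacks the first 2 bases and is contained in the longer motif. The others were the NRF-1 core GCATGCGC, the ETS site CCGGAAG that GABPα binds, the full cyclic AMP response element TGACGTCA and its half-site TGACG, again contained in the longer one. The half-site of *Ppargc1a* lay 49 bases before the start, and 17.8% of all 32851 promoter windows of the same length held one. The NRF-1 core of *Esrra* lay 34 bases before the start, against 2.26% of all windows. In *Gabpa* an ETS site lay 93 bases before the start, against 6.91% of all windows, and *Esrrb* had half-sites TGACG at 158 and 117 bases in 1 of its 2 windows. No window of *Esrrg*, *Nrf1*, *Nrip1* or *Pprc1* held any of the 6 motifs. The motif bound by Hlx was not among the 6 and was not searched for. The authors report putative Hlx motifs in this stretch of the *Esrrg* promoter, with Hlx and Prdm16 bound there in brown adipocytes. In their cultured brown adipocytes, knockdown of Hlx lowered *Esrrg* mRNA and left that of *Ppargc1a* unchanged. The ERR element was in 0.387% of all windows, its shorter form in 4.08% and the full cyclic AMP response element in 1.55%, and none of these was found in a member's window.

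Among the coactivators, *Ppargc1a* (chr5:51454248-51567687 of mm10), which encodes PGC-1α, was at 5.66, 5.31 and 4.91 FPKM in the transgenic mice and at 3.71, 3.16 and 3.42 FPKM in the controls. Every transgenic mouse was above every control, and the spread within a genotype was small, with means of 5.30 ± 0.377 FPKM and 3.43 ± 0.277 FPKM (SD, n = 3 each). The log2 fold change was 0.51 (standard error 0.09, 95% interval 0.29 to 0.73, limma adjusted p = 0.0122). An exact permutation test of 3 mice against 3, over 20 arrangements, gave p = 0.1, the smallest two-sided value it can give, and the same value was obtained for every other member whose genotypes did not overlap.

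*Ppargc1b* (chr18:61291442-61400431) encodes PGC-1β, a coactivator of the same family tied to mitochondrial content in many tissues. It was at 11.0, 11.7 and 18.8 FPKM in the transgenic mice and at 4.48, 3.59 and 4.42 FPKM in the controls. The lowest transgenic mouse was well above the highest control, and transgenic replicate 3 stood above the other two. The means were 13.8 ± 4.29 and 4.17 ± 0.496 FPKM (SD, n = 3 each), and the log2 fold change was 1.49 (standard error 0.19, 95% interval 1.03 to 1.95, limma adjusted p = 0.0036). Without transgenic replicate 3 the log2 fold change was 1.26 (limma adjusted p = 0.00525).

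*Pprc1* (chr19:46056335-46072910) encodes PRC, the third member of the family, which is known as a serum-responsive coactivator of NRF-1 in growing cells. It was at 6.11, 8.18 and 6.49 FPKM in the transgenic mice and at 7.21, 8.27 and 8.49 FPKM in the controls. The genotypes overlapped, with transgenic replicate 2 inside the range of the controls. Its log2 fold change was -0.19 (standard error 0.12, 95% interval -0.47 to 0.09, limma adjusted p = 0.296). The upper bound of that interval lay below the lower bounds of *Ppargc1a* (0.29) and *Ppargc1b* (1.03).

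The make-up of the coactivator family differed accordingly. Summed over the 3 genes the transgenic mice had 22.8, 25.2 and 30.2 FPKM and the controls 15.4, 15.02 and 16.3 FPKM. *Ppargc1b* made up 48.3%, 46.4% and 62.2% of that sum in the transgenic mice, where it was the most abundant of the family, and 29.1%, 23.9% and 27.1% in the controls. *Pprc1* was the most abundant in the controls, with 46.8%, 55.1% and 52.0%, and made up 26.8%, 32.5% and 21.5% in the transgenic mice. The share of *Ppargc1a* overlapped between the genotypes, at 24.9%, 21.1% and 16.3% in the transgenic mice, against 24.1%, 21.0% and 21.0% in the controls.

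Within each mouse *Ppargc1b* was above *Ppargc1a*. Their FPKM ratio was 1.94, 2.203 and 3.82 in the transgenic mice, against 1.21, 1.14 and 1.29 in the controls. On the log2(FPKM + 1) scale the ratio was 0.98 higher in transgenic iWAT, with no overlap between the genotypes (exact permutation test, two-sided p = 0.1, adjusted p = 0.1 over 3 ratios, n = 3 mice per genotype). A design of 3 against 3 cannot pass the 0.05 threshold by this test.

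Of the ERR genes, only *Esrrg* was tested as a single gene. *Esrrg* (chr1:187609005-188214884) encodes ERRγ, a receptor known for high expression in oxidative tissues such as brown fat, heart and slow muscle. It was at 3.62, 2.07 and 2.95 FPKM in the transgenic mice and at 0.341, 0.473 and 0.415 FPKM in the controls. All controls were under 0.5 FPKM and all transgenic mice above 2 FPKM, with means of 2.88 ± 0.778 and 0.41 ± 0.066 FPKM (SD, n = 3 each). The log2 fold change was 1.44 (standard error 0.17, 95% interval 1.05 to 1.84, limma adjusted p = 0.00237). With a pseudocount of 0.1 in place of 1 it was 2.52 (limma adjusted p = 0.0018), as the controls lay below the pseudocount of 1.

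A second row of *Esrrg* at the same locus was at 1.98, 0.868 and 1.48 FPKM in the transgenic mice and at 0.0854, 0.182 and 0.175 FPKM in the controls. It moved the same way, with a log2 fold change of 1.06 (limma adjusted p = 0.0114). This row too passed the filter on low values through the transgenic mean alone (0.147 FPKM in the controls). Its call is therefore not independent of its rise. The sum of both rows was 5.61, 2.94 and 4.42 FPKM against 0.426, 0.654 and 0.59 FPKM, a ratio of means of 7.76. In both rows transgenic replicate 2 was the lowest and replicate 1 the highest of the transgenic mice.

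*Esrra*, which encodes ERRα, the most widely expressed receptor of the group, could not be read alone. The row that names it together with *Prdx5*, an antioxidant peroxiredoxin, spans chr19:6906698-6921933 and was at 721, 523 and 571 FPKM in the transgenic mice and at 362, 384 and 296 FPKM in the controls. The genotypes did not overlap, with means of 605 ± 103 and 347 ± 46.1 FPKM (SD, n = 3 each) and the row rose by 0.80 on the log2 scale (standard error 0.16, limma adjusted p = 0.0183). In GENCODE, on the same build, both genes lie on the minus strand 870 bases apart, and *Trmt112*, on the opposite strand, overlaps *Esrra* by 73 and *Prdx5* by 409 bases. The own row of *Trmt112*, which is given the same locus as the joint row, was at or next to 0 in all 6 mice. How much of the joint row belongs to *Esrra*, to *Prdx5* or to reads of *Trmt112* was not tested. The call was lost with quantile normalization, where the log2 fold change was 0.42 (limma adjusted p = 0.067), without the filter on low values (0.0719), without transgenic replicate 3 (0.0537) and without wild-type replicate 3 (0.062).

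*Esrrb* (chr12:86361116-86521628) encodes ERRβ, known from pluripotent cells and the placenta. It was at 0.3005, 0.466 and 0.822 FPKM in the transgenic mice and at 0.703, 0.554 and 0.345 FPKM in the controls. The genotypes overlapped fully, both means were under the filter of 1 FPKM, and the gene was not tested across loci.

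**Figure D2:**
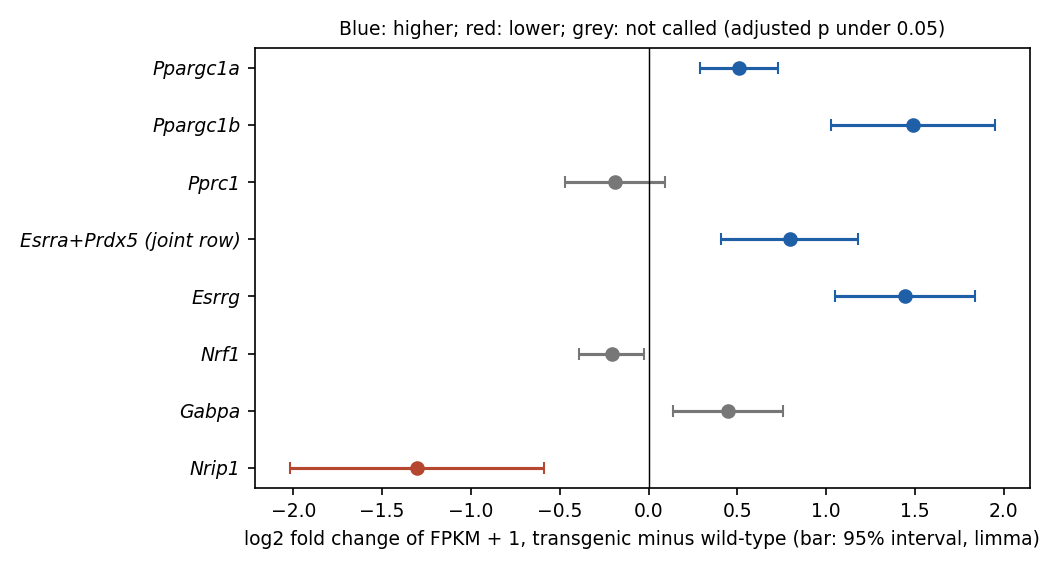
Log2 fold change of FPKM + 1 (transgenic minus wild-type, n = 3 mice per genotype) of the 7 tested members and of the joint row of *Esrra* and *Prdx5*, with bars for the 95% interval from limma. *Ppargc1a*, *Ppargc1b*, *Esrrg* and the joint row are called higher (blue), *Nrip1* is called lower (red), and the interval of *Pprc1* spans 0.

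Neither gene of the nuclear respiratory factors passed the test. *Nrf1* (chr6:30047382-30153458) was at 7.99, 8.26 and 8.35 FPKM in the transgenic mice and at 8.96, 9.78 and 10.2 FPKM in the controls. All transgenic mice were below all controls, by a small margin and with little spread, at 8.20 ± 0.189 against 9.64 ± 0.618 FPKM (SD, n = 3 each). The log2 fold change was -0.21 (standard error 0.08, 95% interval -0.39 to -0.03) and did not pass after adjustment (limma adjusted p = 0.102).

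*Gabpa* was at 19.4, 14.7 and 16.7 FPKM in the transgenic mice and at 13.1, 10.3 and 13.02 FPKM in the controls. Each transgenic mouse was above each control, with means of 16.9 ± 2.37 and 12.1 ± 1.57 FPKM (SD, n = 3 each), yet the log2 fold change was 0.45 (standard error 0.13, 95% interval 0.14 to 0.76), just outside the threshold (limma adjusted p = 0.0552). It was called under 3 of 14 other settings, namely with sample quality weights (limma adjusted p = 0.0318), with the replicate number as a block (0.0294) and without transgenic replicate 2 (0.0415).

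*Gabpa* (chr16:84834925-84863779 in GENCODE) shares 701 bases at its start with *Atp5j*, a subunit of ATP synthase on the opposite strand, and the table gives *Gabpa*, *Atp5j* and *Jam2* one common locus. The library kit does not mark strand, so reads from the shared bases cannot be assigned to one of the genes by strand. *Atp5j* was far more abundant, at 467, 437 and 426 FPKM in the transgenic mice and at 591, 488 and 448 FPKM in the controls. It differed in the other direction from *Gabpa* and was not called (log2 fold change -0.19, limma adjusted p = 0.336).

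*Nrip1* (chr16:76287407-76373808) was the one member called lower. Its product RIP140 is known in adipocytes as a brake on genes of oxidative metabolism and on *Ucp1*. It was at 5.22, 13.8 and 11.9 FPKM in the transgenic mice and at 26.4, 25.8 and 23.3 FPKM in the controls. The controls lay close together (coefficient of variation 6.49%) and the transgenic mice far apart (43.8%), with transgenic replicate 1 the lowest, but the highest transgenic mouse was still below the lowest control.

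The means of *Nrip1* were 10.3 ± 4.51 and 25.2 ± 1.63 FPKM (SD, n = 3 each), and the log2 fold change was -1.30 (standard error 0.30, 95% interval -2.02 to -0.59, limma adjusted p = 0.0273). Without transgenic replicate 1 the log2 fold change was -0.92 and the call was kept (limma adjusted p = 0.00511). The call was lost without transgenic replicate 3 (adjusted p = 0.0528), without any 1 of the 3 controls (adjusted p = 0.073, 0.0725 and 0.0738, limma) and without the filter on low values (0.116), with log2 fold changes between -1.44 and -1.27.

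Set against RIP140 within each mouse, both coactivators were higher in transgenic iWAT. The FPKM ratio of *Ppargc1a* to *Nrip1* was 1.09, 0.384 and 0.414 in the transgenic mice, against 0.141, 0.123 and 0.147 in the controls. That of *Ppargc1b* to *Nrip1* was 2.11, 0.846 and 1.58 in the transgenic mice, against 0.170, 0.139 and 0.190 in the controls. In every control *Nrip1* thus exceeded *Ppargc1b*, and in transgenic replicates 1 and 3 the order was the other way around. On the log2(FPKM + 1) scale the ratios were 1.81 and 2.79 higher in transgenic iWAT (exact permutation test, two-sided p = 0.1 for each, adjusted p = 0.1 over 3 ratios, n = 3 mice per genotype). In every transgenic mouse each coactivator was above and *Nrip1* below all controls. The lack of overlap in these ratios and their p were therefore fixed by the single-gene values and add no separate result.

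**Figure D3:**
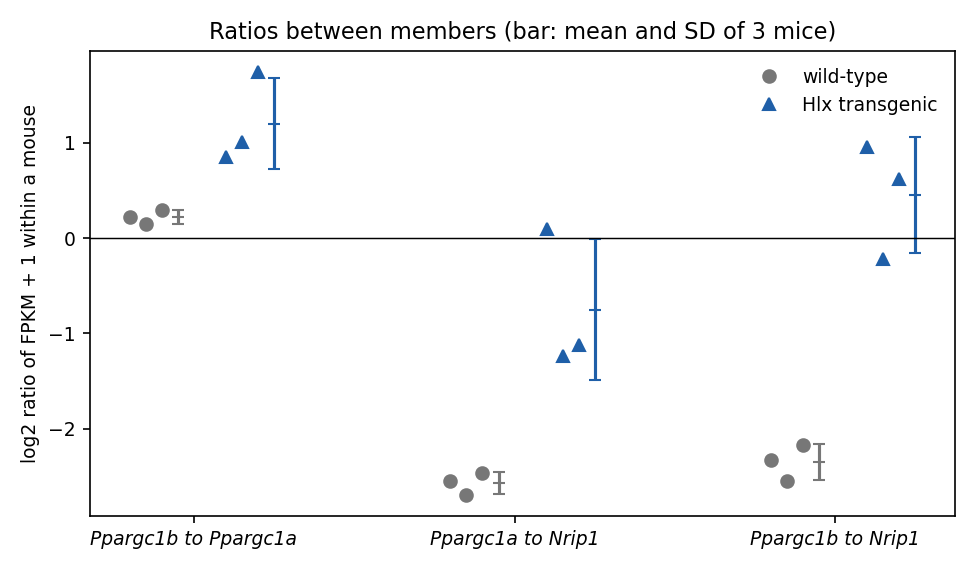
Log2 ratio of FPKM + 1 between members within each mouse, with grey circles for wild-type and blue triangles for transgenic mice and bars for the mean and SD of 3 mice. The genotypes do not overlap in any of the 3 ratios, which were 0.98, 1.81 and 2.79 higher in transgenic iWAT. For the ratios to *Nrip1* the lack of overlap follows from the single-gene values.

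The order of the 8 single-gene members by level differed between the genotypes. In the controls *Nrip1* was highest at a mean of 25.2 FPKM, followed by *Gabpa*, *Nrf1*, *Pprc1*, *Ppargc1b*, *Ppargc1a*, *Esrrb* and *Esrrg*. The ranges of *Ppargc1b* and *Ppargc1a* overlapped there, as did those of *Esrrb* and *Esrrg*, and the other neighbours were apart. In transgenic iWAT the order was *Gabpa*, *Ppargc1b*, *Nrip1*, *Nrf1*, *Pprc1*, *Ppargc1a*, *Esrrg* and *Esrrb*. There the first 5 each overlapped with their neighbour, and *Ppargc1a*, *Esrrg* and *Esrrb* were each set apart from the gene above. *Esrrg* is placed here by its higher row alone. With both of its rows summed, its transgenic range of 2.94 to 5.61 FPKM overlapped that of *Ppargc1a*. In the controls the summed mean was 0.557 FPKM, above the 0.534 FPKM of *Esrrb*.

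For each tested member the 3 loci with the most similar log2(FPKM + 1) profile over the 6 mice were taken from all tested loci, as a description (Pearson's r between 0.991 and 0.999, n = 6 mice). With 2 genotypes of 3 mice, these profiles carry both the difference between the genotypes and the differences between mice. For *Ppargc1a* they were *Farp2*, *Adssl1* and the joint row of *Acsf2* and *Rsad1*, for *Ppargc1b* *Car2*, *Tsga10* and *Slc22a5*, for *Esrrg* *Acox2*, *Nek9* and *Ubxn4*, and for *Nrip1* *Ppp4r1*, *Slc25a24* and *Blmh*. For the members that were not called they were *Shisa5*, *Arid5a* and *Limd2* (*Pprc1*), *Slc23a2*, *Prg3* and *Foxj2* (*Nrf1*), and *Hs6st1*, *Usp8* and *Hist1h4a* (*Gabpa*).

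Genes that act on or with the members were described by list. Of 12 coactivator partners 11 were tested, and 1 was higher and 0 lower at a limma adjusted p under 0.05. Over all tested loci 11.6% were higher and 7.03% lower. The list's median log2 fold change was -0.11 against -0.01 over all tested loci. The one that rose was *Prdm16*, a partner of PGC-1α that is known as a determinant of brown and beige fat, from 1.54 ± 0.241 to 3.25 ± 0.887 FPKM (SD, n = 3 each; log2 fold change 0.73, limma adjusted p = 0.0258). The authors report Prdm16 as a coactivator of Hlx. They propose that its higher mRNA in transgenic iWAT is likely secondary to browning, which was not tested here. The acetyltransferases, p160 coactivators, *Med1*, *Prmt1* and *Sirt1* had log2 fold changes between -0.19 and 0.13 and were not called.

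Of 10 corepressors and inhibitors 9 were tested, with a median log2 fold change of -0.05, which was -0.11 with quantile normalization, -0.088 without wild-type replicate 3, -0.026 without wild-type replicate 1 and -0.030 without transgenic replicate 2. The only call was a rise of *Rb1*, the retinoblastoma protein, which is known to hold back *Ppargc1a* transcription in fat, from 19.8 to 27.1 FPKM (log2 fold change 0.43, limma adjusted p = 0.031). Of all tested loci 11.6% were called higher and 7.03% lower. The fall of *Nrip1* was not accompanied by a called fall in this list. *Twist1*, an inhibitor that binds PGC-1α, came nearest at a log2 fold change of -0.35 (limma adjusted p = 0.0712).

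All 12 listed inducers of *Ppargc1a* were tested, and 2 were higher and 3 lower, against 11.6% and 7.03% of all tested loci. The median of the log2 fold changes was -0.12. *Atf2*, which binds cyclic AMP response elements after p38 signalling, rose by 0.47 on the log2 scale (limma adjusted p = 0.0105). *Prkaa2*, the α2 catalytic subunit of AMP-activated protein kinase, also rose by 0.47 (adjusted p = 0.0256, limma), and *Prkaa1*, the α1 subunit, changed by -0.74 on the same scale (0.00225). These subunits thus moved in opposite directions, *Prkaa1* from 15.3 to 8.80 FPKM and *Prkaa2* from 2.79 to 4.26 FPKM.

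*Adrb3*, the β3-adrenergic receptor of adipocytes, was at 101, 127 and 74.2 FPKM in the transgenic mice and at 168, 157 and 160 FPKM in the controls. It was lower in each transgenic mouse, with a log2 fold change of -0.71 (limma adjusted p = 0.0384). *Crtc3*, a coactivator of CREB, was also lower, with a log2 fold change of -0.32 (limma adjusted p = 0.0372).

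Of 7 partners and namesakes of the respiratory factors 6 were tested, with a median log2 fold change of -0.11, and *Gabpb2* was listed only in a joint row. *Nfe2l1* was the only call, where 18.6% of all tested loci were called in either direction. It rose from 135 ± 13.4 to 196 ± 22.5 FPKM (SD, n = 3 each, log2 fold change 0.53, limma adjusted p = 0.0251). It encodes a stress-responsive factor that is also called Nrf1 in the literature but is unrelated to the *Nrf1* gene above, which did not rise. *Gabpb1*, the partner subunit of GABPα, was at 7.35 against 9.23 FPKM (limma adjusted p = 0.0921).

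**Figure D4:**
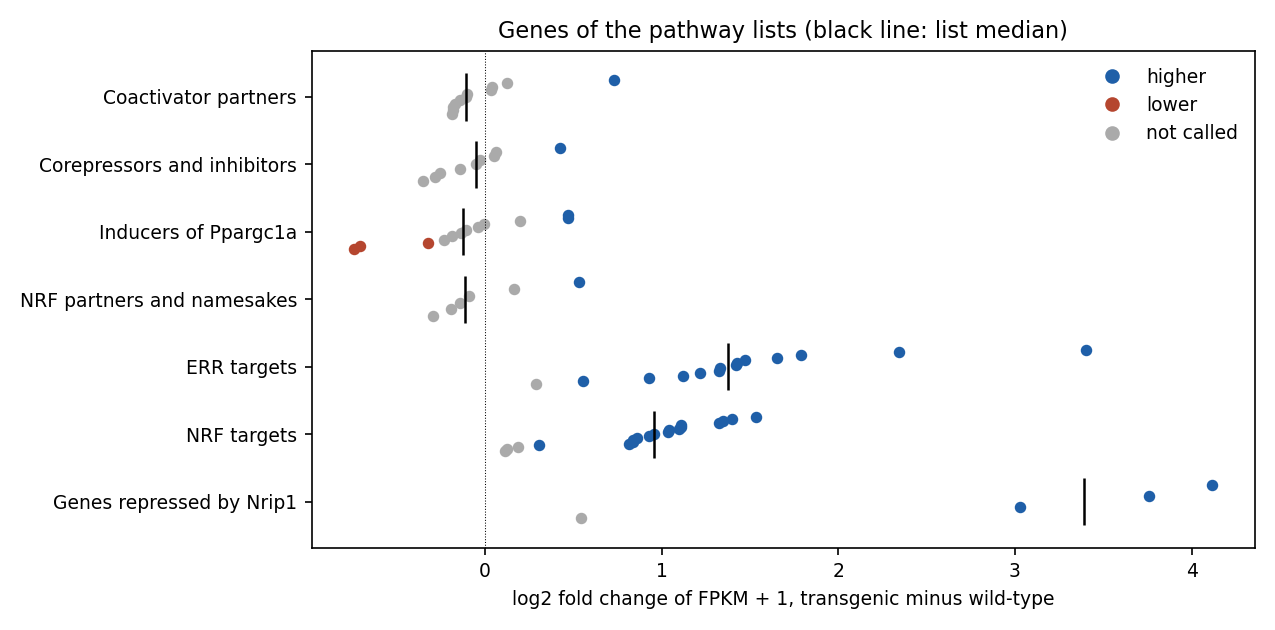
Log2 fold change of FPKM + 1 (transgenic minus wild-type) of every tested gene in the 7 lists, with blue for higher, red for lower and grey for not called, and a black line at the list median. The lists of partners, corepressors and inducers centre near 0, with medians between -0.12 and -0.05, while those of targets lie to the right, with medians of 1.38, 0.96 and 3.39.

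The listed targets were higher almost throughout. Most of the ERR and NRF targets encode mitochondrial proteins, and the authors report a higher mitochondrial density in transgenic iWAT. Whether these targets rose more than other mitochondrial genes was not tested. Of 15 ERR targets 14 were tested and 13 were higher, against 11.6% of all tested loci, with 0 lower. The median log2 fold change was 1.38 against -0.01 over all tested loci. Among the largest rises were those of *Pdk4*, which restrains glucose oxidation (log2 fold change 3.40, limma adjusted p = 0.000231), *Acadm*, the medium-chain acyl-CoA dehydrogenase (1.79, adjusted p = 0.0011), and *Uqcrc1*, a core subunit of complex III (1.65, adjusted p = 0.00123). *Pdk4* went from 57.1, 38.2 and 44.8 FPKM in the controls to 434, 477 and 590 FPKM in the transgenic mice, with no overlap. *Vegfa*, the angiogenic factor, was the exception at a log2 fold change of 0.29 (limma adjusted p = 0.181), and was singled out after its values were seen.

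All 19 NRF targets were tested, and 16 were higher, against 11.6% of all tested loci, and 0 lower. The median log2 fold change was 0.96. The cytochrome c oxidase subunits *Cox5a* (log2 fold change 1.54, limma adjusted p = 0.00244), *Cox7b* (1.40, adjusted p = 0.000418) and *Cox5b* (1.33, adjusted p = 0.00104) and the complex III subunit *Cyc1* (1.35, adjusted p = 0.00203) led the list. The 3 genes not called, singled out after their values were seen, were *Tfam*, which packages and transcribes mitochondrial DNA, at 0.19 (adjusted p = 0.112), *Tfb1m*, a methyltransferase of mitochondrial ribosomal RNA, at 0.12 (0.325), and *Tomm20*, a receptor of the outer membrane import machinery, at 0.11 (0.339). *Cycs* and *Cox5b* stand in both target lists, and *Cycs*, cytochrome c, was at only 2.52 to 3.57 FPKM in the transgenic mice, a level that is uncertain because near-identical pseudogene copies can take its reads.

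Of 5 genes listed as repressed by RIP140 4 were tested and 3 were higher, against 11.6% of all tested loci. The median log2 fold change was 3.39. *Fabp3* passed the filter on low values through the transgenic mean alone (0.956 FPKM in the controls), so its call and its part in that median are not independent of its rise. *Ucp1*, the uncoupling protein of brown and beige fat, had a log2 fold change of 4.12, *Cidea*, a lipid droplet protein of brown fat, one of 3.76, and *Fabp3*, a fatty acid binding protein of oxidative tissue, one of 3.03 (limma adjusted p = 0.00106, 0.000274 and 0.00119). *Fabp3* was at 22.1, 9.15 and 15.8 FPKM in the transgenic mice, and at 1.27, 0.644 and 0.951 FPKM in the controls. *Slc2a4*, the insulin-responsive glucose transporter, had 181 against 124 FPKM and was not called (log2 fold change 0.55, limma adjusted p = 0.0737). The authors report Hlx and Prdm16 bound at the promoters of *Ucp1* and *Cidea* in brown adipocytes. The part of *Nrip1* in the rise of the listed genes was not tested.

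Markers of other cell types moved along with some of these values, and in bulk tissue fewer cells of a type cannot be told apart from less RNA per cell. The counts of called markers stand against 11.6% of all tested loci called higher and 7.03% lower. Skeletal muscle also expresses *Esrrg* and *Ppargc1a*, and the 11 of its 12 markers with a row summed to 72.2, 579 and 115 FPKM in the transgenic mice and to 6.35, 121 and 34.6 FPKM in the controls, with 0 of the 9 tested markers called and *Myh7* and *Myog* under 1 FPKM in all mice. Transgenic replicates 1 and 3 were above 2 of the 3 controls in this sum and transgenic replicate 2 was above all, and the part of muscle in the rise of *Esrrg* and *Ppargc1a* was not tested. Without transgenic replicate 2 the log2 fold changes were 1.60 for *Esrrg* and 0.50 for *Ppargc1a* (limma adjusted p = 0.00265 and 0.0319). Macrophage markers summed to between 492 and 708 FPKM in the transgenic mice and between 937 and 1262 FPKM in the controls, with 4 of 7 tested markers lower (*Cd68*, *Csf1r*, *Lyz2* and *Cd163*). Lymphocyte markers summed to 173 to 264 against 257 to 376 FPKM (1 of 7 lower, *Ms4a1*), and fibroblast and progenitor markers to 1349 to 1902 against 1648 to 2242 FPKM (0 of 8 called). Endothelial markers summed to 189 to 207 against 171 to 184 FPKM (2 of 8 higher, *Kdr* and *Emcn*), epithelial markers to 87.6 to 168 against 129 to 196 FPKM (0 of 6 called), and 2 of 7 adipocyte markers were lower (*Adipoq* and *Retn*). Like *Nrip1*, the macrophage, lymphocyte, fibroblast and epithelial sums were lowest in transgenic replicate 1, and their part in its fall was not tested.

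The members' directions held under every setting tried. Over 14 alternatives the log2 fold change ranged from 0.46 to 0.61 for *Ppargc1a*, from 1.26 to 1.70 for *Ppargc1b* and from 1.31 to 2.52 for *Esrrg*, and all 3 were called each time, with highest limma adjusted p of 0.0475, 0.0353 and 0.0213. *Pprc1* lay between -0.30 and -0.11 and *Nrf1* between -0.25 and -0.17, and neither was called under any of them. *Gabpa* lay between 0.34 and 0.54 and *Nrip1* between -1.55 and -0.92.

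**Figure D5:**
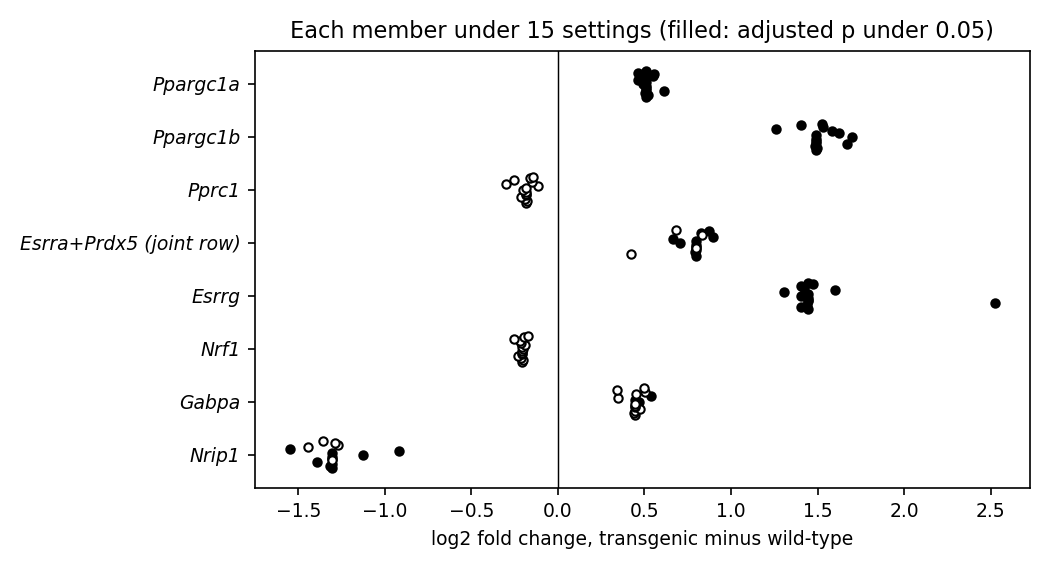
Log2 fold change (transgenic minus wild-type) of the tested members and the joint row under the reported and 14 alternative settings, 1 point per setting, filled where the limma adjusted p is under 0.05. The points of *Ppargc1a*, *Ppargc1b* and *Esrrg* are filled throughout, those of *Gabpa*, *Nrip1* and the joint row are mixed, and no row crosses 0.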

How the data were processed

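RNA-Seq was performed on iWAT of 6 mice, and 1 table of FPKM for 19445 loci was analysed. The authors deposited FPKM per locus and mouse, made from unstranded TruSeq libraries read as single-end reads of 100 bases. The submitters' processing notes name CASAVA 1.8.2, TopHat2 2.0.9, Bowtie2 2.1.0 and Cufflinks 2.2.1 with mm10, while the annotation and options are not given in the sources used here. Reads and counts were not used. All 6 per-sample columns were used.

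The 11692 loci whose mean passed 1 FPKM in either genotype entered limma 3.58.1 (R 4.3.3) on log2(FPKM + 1), with eBayes and trend, two-sided, without covariates, and with Benjamini-Hochberg adjustment. Single genes and ratios were also tested with an exact permutation test over 20 arrangements. Nothing in the labels says how the mice relate beyond being littermates of 2 genotypes, so p-values measure the spread between these samples. No pair of libraries was identical. The procedure was checked on simulated data. Symbols were matched exactly, and joint rows were kept as joint. Named genes were all members, up to 4 called genes per list by size of change, genes called against most of their list, *Hlx*, and the 3 most similar loci per member. Genes singled out after their values were seen are given as such, as are *Twist1*, *Gabpb1*, *Atp5j* and *Xist*. The members and lists were chosen with earlier results of these data known. Alternatives were quantile normalization, median-ratio scaling, a pseudocount of 0.1, no filter, a minimum set on the mean over all 6 mice, eBayes with no trend, weights for sample quality, a block for the replicate number, and each mouse left out in turn. The sequence of *Ppargc1b* and the values of some genes that meet the naming rule are not reported here. Promoters came from RefSeq, gene positions from GENCODE.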

Additional observations from a re-analysis of the deposited data

How the results depend on the processing

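The count of members called higher was 3 under 11 of 14 alternatives and 4 under the others, where *Gabpa* was added. The count called lower fell from 1 to 0 without the filter on low values, and ranged from 0 to 1 with each mouse left out in turn. No log2 fold change of a member and no list median changed sign. With quantile normalization the list median was -0.11 for corepressors and inhibitors, -0.15 for inducers of *Ppargc1a* and 0.79 for NRF targets, and with a pseudocount of 0.1 that of genes repressed by RIP140 was 3.81. With each mouse left out, the median of the corepressors ranged from -0.088 to -0.026 and that of the inducers from -0.14 to -0.10. The cause of these shifts was not tested. Scaling moved the median of all tested loci to -0.03 at most.

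With the replicate block, 4 members were higher and 1 lower, and the limma adjusted p was 0.0312 for *Ppargc1a*, 0.00968 for *Ppargc1b*, 0.0141 for *Esrrg*, 0.0452 for *Nrip1* and 0.0294 for *Gabpa*. Mice of the same replicate number correlated by 0.0129 to 0.0701 in their deviations from the group means, and did not each correlate best with their own number, so the numbers were not taken to pair them. The absolute depth is unknown, and low FPKM values, such as those of *Esrrb* and of *Esrrg* in the controls, are the least precise. With a mouse left out, the smallest p of the exact test is 0.2.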
